A study of Xenopus laevis with 64 samples.

Results

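Hindlimbs of Xenopus laevis tadpoles kept for 96 h in methimazole (MMI, 100 mg/L) were compared with hindlimbs of control tadpoles of the same time and experiment. The 3 arrays labelled MMI and the 3 labelled control at that time make up 6 of the 64 arrays of the series, and each array held amplified RNA of 1 animal. All of these animals entered exposure at NF stage 54, the onset of the prometamorphic period, and exposure was continuous. The study set hindlimb and tail of tadpoles given thyroid hormones or thyroid inhibitors against controls. The labels name laboratory water as the control of the hormone exposures, and for the inhibitor experiment they say only that controls were matched. The labels give no sex, strain or genotype. The animals of a treatment were taken from a small number of tanks and the labels do not tie an animal to its tank. The tests below therefore rest on the spread from animal to animal. Unless said otherwise, the limma tests in hindlimb took that spread over all 38 hindlimb arrays of 12 groups, not over the compared arrays alone. An effect of the tank cannot be told apart from that of the treatment, and the p-values do not account for it.

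Methimazole is a thionamide that blocks thyroid peroxidase, the enzyme that puts iodine on thyroglobulin and couples it into thyroid hormone. In the tadpole, thyroid hormone drives growth and patterning of the limbs as well as loss of the tail, and it acts through nuclear receptors that pair with retinoid X receptors. The labels state that this concentration delayed metamorphosis in earlier work.

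The array held 406 cDNA probes, each printed as a pair of neighbouring spots, and a gene symbol was available for 237 of them. Pairs without a symbol are called by their number on the array. This frog is allotetraploid, and a symbol ends in L or S for the subgenome, long or short, that holds the gene. The deposited values were background-subtracted intensities, and on the 6 arrays 38.9 to 47.0% of the measured spots were below 0. The noise of an array was taken from its negative values, and a pair counted as above background where the mean of its spots exceeded 2 noise SD. By that limit 39, 22 and 35 pairs were above background on control replicates 1, 2 and 3, and 31, 31 and 23 on MMI replicates 1, 2 and 3. The means were 32 ± 8.89 and 28.3 ± 4.62 (SD, n = 3 each), and an exact two-sided permutation test gave p = 0.6, where 3 arrays against 3 cannot go below 0.1.

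Control replicate 2 had the fewest pairs above background and the largest noise SD of the 6 arrays, 1928 against 835 to 1893 on the others. All values on an array were whole multiples of 1 constant, 3.44 on control 2 and 1.85 to 2.43 on the others. The noise SDs and intensities given here carry that constant, and divided by it the noise SD of control replicate 2 was not the largest. Control replicate 2 was not dim throughout. Its brightest pair read 164628, against 43136 to 62332 on the other 5 arrays, and the abundant transcript of ldhb.S read 127890 on it. Over the 29 tested pairs its rank correlation with the other arrays ran from 0.66 to 0.84. The ranges of MMI replicates 1, 2 and 3 were 0.76 to 0.96, 0.73 to 0.96 and 0.66 to 0.88, and those of controls 1 and 3 were 0.80 to 0.87 and 0.78 to 0.88. The changes with MMI against the controls of 96 h are therefore given with and without it.

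A pair was tested where it was above background on at least 3 of the 6 arrays, which left 29 pairs, 15 of them named. Of the 377 others, 341 were not above background on any of the 6 arrays. With limma, and p-values adjusted by Benjamini-Hochberg over the 29 pairs, 2 passed a threshold of 0.05 (6.9%), both higher with MMI. They were the homeobox gene nkx2-2.S and the unnamed pair 260. At an unadjusted p under 0.05 there were 7 pairs, all higher with MMI, where 1.45 would be expected by the threshold alone. The 7 share the same 3 controls, so they are not independent and the excess is no support. The 3 MMI arrays alone would have admitted nkx2-2.S, pair 260, hmgn3.L and pair 363, which were not above background on every control. The median log2 change was 0.03, with 15 pairs above 0 and 14 below. Without control replicate 2, 27 pairs could be tested and 0 passed. Of the 3 then at an unadjusted p under 0.05, 2 were higher with MMI. The smallest adjusted p, 0.35 by limma, was that of the unnamed pair 36, which was lower with MMI.

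The nkx2-2.S transcript encodes a homeodomain transcription factor known for patterning the ventral neural tube of vertebrates. Its deposited intensity was 4305, 1400 and 16363 on control replicates 1 to 3 and 20512, 16821 and 16305 on MMI replicates 1 to 3. On the log2 scale after normalization the controls read 12.21, 10.66 and 13.63 and the MMI arrays 13.58, 13.36 and 13.68. The MMI animals were close together, controls 1 and 2 were below all of them, and control 3 lay among them, so the groups overlapped. The log2 change was 1.37 with SE 0.41 and a 95% interval of 0.53 to 2.22, a 2.59-fold higher level (limma, adjusted p = 0.0351). That SE came from the spread over all hindlimb groups. On the 6 arrays themselves the SD was 1.49 in controls and 0.16 with MMI. Without control replicate 2 the change was 0.63 with SE 0.34 (adjusted p = 0.398). The call was also lost without control replicate 1 or any 1 MMI array (changes of 1.31 to 1.47, adjusted p between 0.0608 and 0.0953), and with only the 6 arrays fitted (adjusted p = 0.491).

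Pair 260, which has no gene name here, behaved in the same way. It read 13.22, 10.86 and 13.87 on the log2 scale in controls and 13.84, 13.97 and 14.44 with MMI. Control 2 was far below the rest, control 1 was below every MMI animal, and control 3 was above the lowest of them. The SD was 1.59 in controls and 0.32 with MMI, and the SE below again came from all hindlimb groups. The log2 change was 1.44 with SE 0.43 (limma, adjusted p = 0.0351), and 0.52 without control replicate 2 (adjusted p = 0.398). That call was lost too without any 1 MMI array (changes of 1.26 to 1.56, adjusted p between 0.0608 and 0.0995), and with only the 6 arrays fitted (adjusted p = 0.491).

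**Figure D1:**
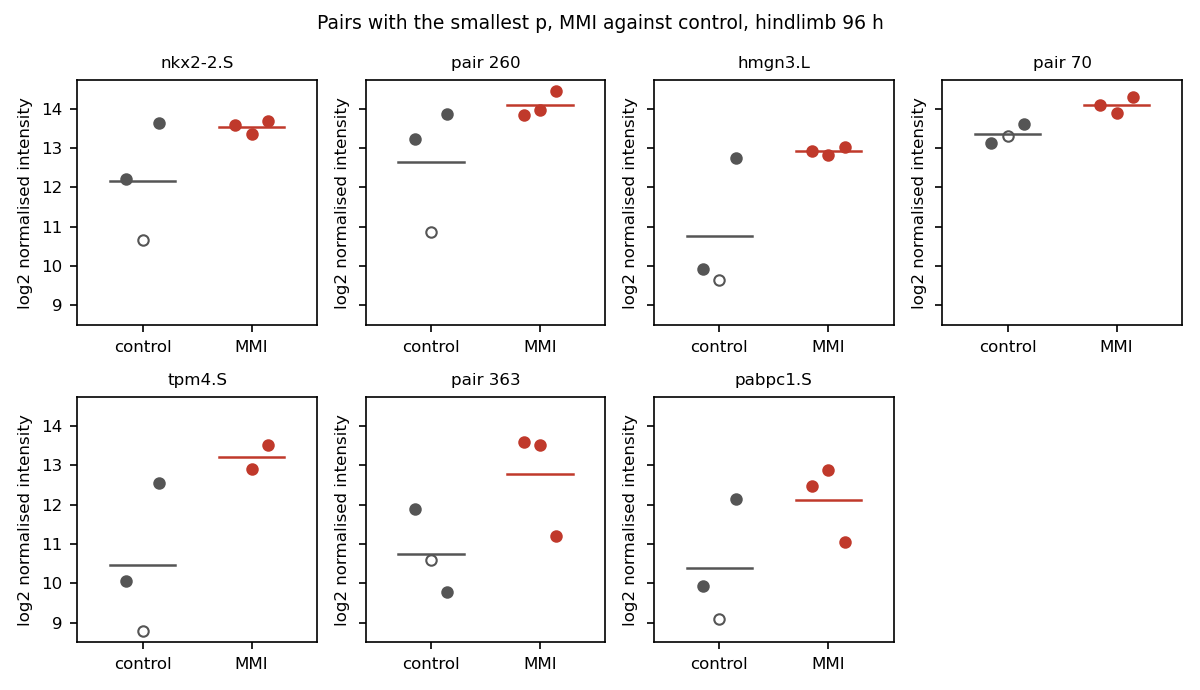
The log2 normalised intensity (vertical axis) of the 7 pairs with an unadjusted p under 0.05 is plotted for each array of control and MMI hindlimbs at 96 h. Points are single arrays, horizontal lines are group means and the open circle is control replicate 2. Control replicate 3 is the highest control in 6 of the 7 panels, and tpm4.S has no point for MMI replicate 1, where its spots were blank.

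In 6 of these 7 pairs, all but pair 363, the SD was larger in the controls. Control 2 was below every MMI array in all 7, control 1 in 6 and control 3 in 4, and control 3 was the highest control in 6. Leaving out control 2 reduced the size of the change in all 7, and it was the lowest control in 5 of them. Over the 29 tested pairs the median SD between animals was 0.61 in controls, 0.39 in controls without replicate 2 and 0.21 with MMI. The SD was larger in controls for 22 of the 29.

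The gene hmgn3.L encodes a chromatin protein whose human counterpart was first described as a protein that interacts with the thyroid hormone receptor. It read 9.92, 9.65 and 12.75 in controls and 12.92, 12.82 and 13.02 with MMI on the log2 scale. Controls 1 and 2 were below background, with deposited intensities of -75.3 and -826, while control 3 and all MMI animals were above it. On the normalized log2 scale the groups did not overlap. On deposited intensity control 3 read 11863, above MMI replicates 1 and 3 at 11300 and 6157, so the groups overlapped there. The log2 change was 2.15 with SE 0.80, but its adjusted p of 0.0965 (limma) did not pass, and without control replicate 2 it was 1.61 (adjusted p = 0.398). Without control replicate 3, the only control above background, the log2 change was 3.14. The pair then entered the test through the MMI arrays alone, so the pass of that fit is no support. With a floor in place of the background model the change was 1.54, so its size depends on how values below background are treated.

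On the normalized log2 scale, groups did not overlap in 3 of the 29 pairs with MMI higher (10.3%) and in 1 with MMI lower (3.45%). Those higher were hmgn3.L, pair 70 and tpm4.S, and the one lower was ldhb.S. Without control replicate 2, when fewer controls are left to overlap with, there were 5 higher and 3 lower among 27 pairs. Pair 70 read 13.11, 13.31 and 13.62 in controls and 14.08, 13.88 and 14.30 with MMI. Every MMI animal was above every control, and control 2 was the middle control. Its log2 change was 0.74 with SE 0.28 (limma, adjusted p = 0.0965) and 0.71 without control replicate 2 (adjusted p = 0.398). It passed with arrays centred on their medians, on bright pairs, or with a floor in place of the background model.

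The transcript of tpm4.S, a tropomyosin that binds actin filaments in muscle and other cells, read 10.05, 8.78 and 12.56 in controls. With MMI it read 12.90 and 13.51 on replicates 2 and 3, and the spots of replicate 1 were blank, so the fit dropped that array. The MMI animals were above all controls, of which only control 3 was above background. The log2 change was 2.74 with SE 1.11 (limma, adjusted p = 0.099) and 1.92 without control replicate 2. Of the other muscle genes on the array, des.1.S, which encodes the muscle filament protein desmin, was above background on control 3 alone, and the regulator myf5.L on 1 array of each group. Myf6.L was below background on all 6 arrays.

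The poly(A)-binding protein gene pabpc1.S, whose product coats the tails of messenger RNA in translation, read 9.94, 9.09 and 12.15 in controls and 12.46, 12.87 and 11.05 with MMI. The groups overlapped, since MMI replicate 3 was below control 3. The log2 change was 1.73 with SE 0.74 (limma, adjusted p = 0.106) and 1.09 without control replicate 2. With a floor in place of the background model it was 0.72 (adjusted p = 0.459), 2 of the controls having deposited intensities of 72.8 and -1844. The unnamed pair 363 read 11.89, 10.59 and 9.77 in controls and 13.59, 13.52 and 11.20 with MMI, a change of 2.02 with SE 0.82 (limma, adjusted p = 0.099) and 1.96 without control replicate 2. In that pair MMI replicate 3 was below control 1 and the other 2 MMI animals were above all controls. Only control 1 was above background, and controls 2 and 3 had deposited intensities of 1197 and -279. The size of its change therefore rests on values below background.

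None of the genes of cell division passed. Of 11 pairs of the cell cycle and replication list, 7 were not above background on any array and 4 were tested, with 2 above 0, 2 below and a median log2 change of 0.02, against 0.03 over all tested pairs. The D-type cyclins ccnd1.L and ccnd2.L, which open the G1 phase to growth signals, differed by -0.15 (SE 0.29) and -0.29 (SE 0.21). In ccnd2.L the controls read 13.91, 14.52 and 14.27 and the MMI animals 13.89, 14.16 and 13.79, so the groups overlapped. The sign of both cyclins turned with the scaling, to 0.19 and 0.05 with arrays centred on their medians.

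The mitotic kinase gene cdk1.S read 11.35, 12.38 and 13.37 in controls and 12.79, 12.99 and 12.03 with MMI, with the MMI animals inside the range of the controls (log2 change 0.24, SE 0.49). The replication clamp gene pcna.S read 14.22, 14.19 and 14.46 in controls and 14.60, 14.42 and 14.43 with MMI (log2 change 0.19, SE 0.22). Its 95% interval ran from -0.25 to 0.63. Without control replicate 2 the log2 changes were 0.05 for ccnd1.L, -0.14 for ccnd2.L, 0.24 for cdk1.S and 0.13 for pcna.S. The replication licensing genes mcm2.L, mcm3.L, mcm4.S and mcm5.L, the reductase subunit rrm1.L, and ccne1.L and cdk2.S were below background on all 6 arrays.

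**Figure D2:**
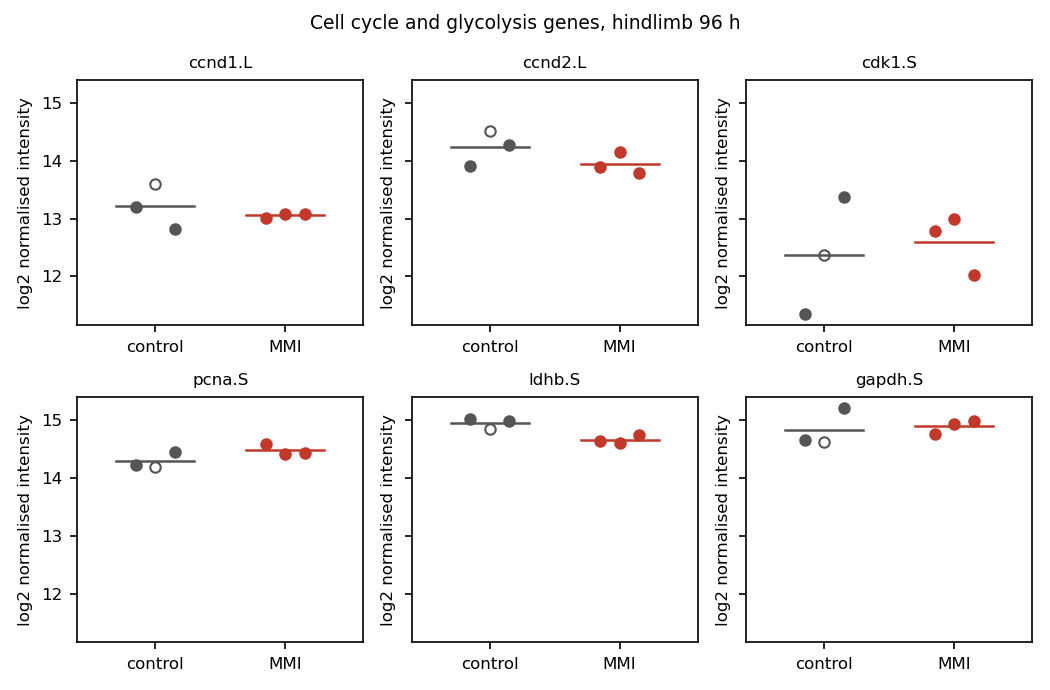
The log2 normalised intensity (vertical axis) of 4 cell cycle and 2 glycolysis genes is plotted for each control and MMI array of hindlimb at 96 h. Points are arrays, horizontal lines are group means and the open circle is control replicate 2. The groups overlap in every panel except that of ldhb.S, where the 3 MMI arrays are below the 3 controls.

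Of 6 pairs of glycolysis genes, 2 were tested. Lactate dehydrogenase B, ldhb.S, which interconverts pyruvate and lactate, was one of the most precise measurements: 15.02, 14.85 and 14.99 in controls and 14.64, 14.60 and 14.74 with MMI. Every MMI animal was below every control. The log2 change was -0.29 with SE 0.19 and did not pass (limma, adjusted p = 0.425), and without control replicate 2 it was -0.32. With arrays centred on their medians the change was -0.86 and passed (adjusted p = 0.0143), and centred on bright pairs it was -0.94 (adjusted p = 0.00569). Both of these fits included control replicate 2, and no value without it is given for them. With no scaling between arrays the change was -0.72 and did not pass (limma, adjusted p = 0.29). On the deposited scale the MMI arrays read 38176, 42927 and 33476, and controls 1 and 3 read 43136 and 47435, beside 127890 on control 2. The gapdh.S pair that was bright, pair 397, read 14.65, 14.62 and 15.21 in controls and 14.76, 14.93 and 14.99 with MMI, all MMI animals inside the control range (log2 change 0.07, SE 0.31, and -0.04 without control replicate 2). The pyruvate kinase gene pkm.S was above background on MMI replicate 1 alone.

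The remaining named pairs had wide intervals. The proteasome subunit gene psma2.L differed by 0.96 with SE 0.81 and by 0.14 without control replicate 2, and MMI replicate 1 was blank. The polyamine synthesis enzyme gene odc1.L differed by 0.54 with SE 0.67, and by 0.45 without control replicate 2. The adaptor protein gene ywhab.L, a member of the family that binds phosphorylated proteins, differed by -0.71 with SE 0.52, and mamdc2.L by -0.29 with SE 0.47. Without control replicate 2 these were -0.58 and -0.17. The median half-width of the 95% interval over the 29 pairs was 0.97 on the log2 scale. In a typical pair a smaller change could not be told from 0 even before adjustment. To pass the adjusted threshold a change had to be larger.

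**Figure D3:**
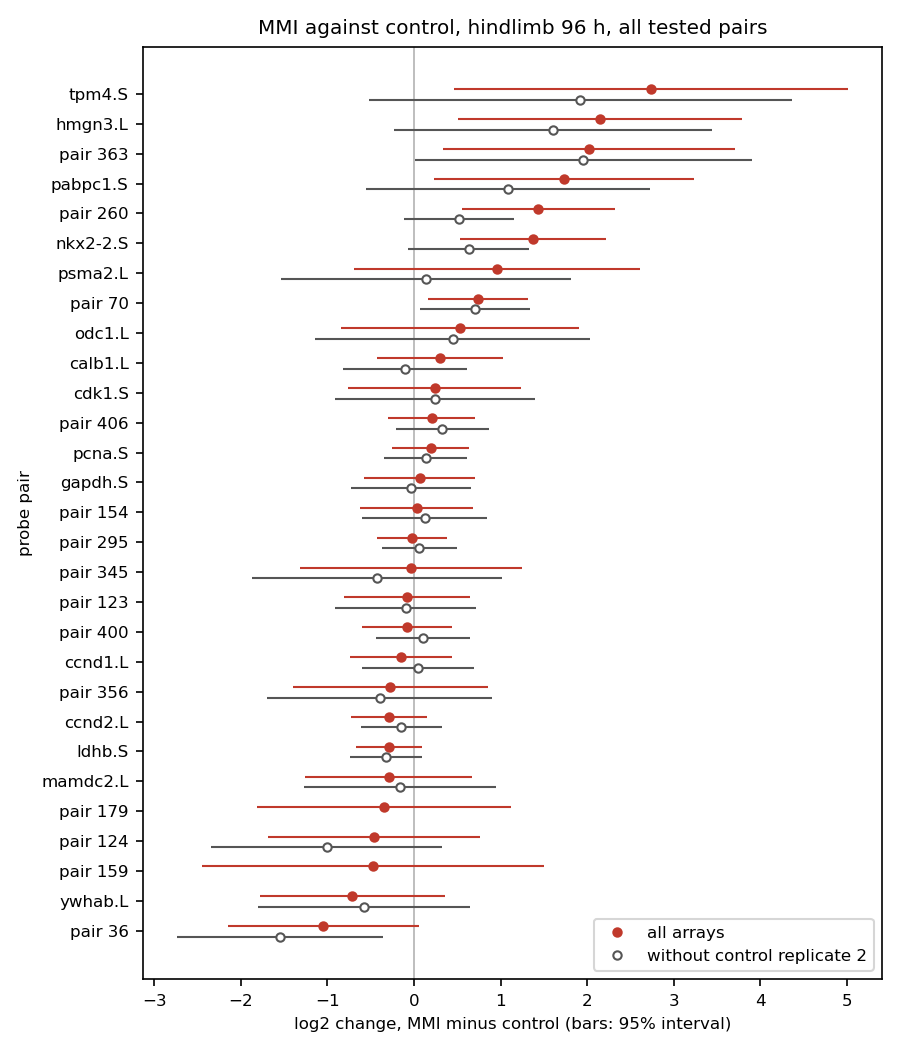
The log2 change, MMI minus control, of all 29 tested pairs (horizontal axis) is plotted with its 95% interval, for all arrays (filled) and without control replicate 2 (open). The 6 topmost pairs move toward 0 when control replicate 2 is left out, and pairs 159 and 179 have no second value because they were then not tested.

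Listed genes that respond to thyroid hormone were not above background in these hindlimbs. The 5 listed pairs on the array were thibz.L, a leucine zipper factor induced by the hormone, the proteases fap.L and mmp9.1.S, and thdl17.L and thdl18.S, and none was above background on any of the 6 arrays. Thibz.L read 539, -692 and 1676 in controls and -275, 323 and 227 with MMI, all below the limit of 2 noise SD. The values above 0 of the list summed to 3001 to 4465 in controls and 984 to 2426 with MMI. Since no member was above background, these are sums of values within the noise and their difference was not tested. Of all measured spots, 38.9 to 43.4% were below 0 on the control arrays and 45.2 to 47.0% on the MMI arrays. Of the pair of listed genes for hormone synthesis, transport and receptors, pax8.L, a factor of thyroid development, was below background throughout. The retinoid X receptor gene rxrb.L was above it on control 2 alone, at 3915.

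The list of limb patterning and homeobox genes, which holds nkx2-2.S as a homeobox gene, had 6 other pairs. They were pitx1.L, which marks the hindlimb, dlx2.L, dlx3.S, dlx5.L, pax2.L and pou2f1.S, and none was above background on any of the 6 arrays. The labelled tissue could therefore not be checked by pitx1.L, which read between -947 and 560. The cartilage collagen gene col2a1.L was likewise below background, with 2165 on MMI replicate 3 as its highest value.

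Markers of other tissues were measured beside these genes. Of 4 nervous system pairs only calb1.L, a calcium-binding protein gene, was above background, on all 6 arrays, while mbp.S, gap43.S and neurod1.L were not above it on any. Calb1.L read 15.01, 13.59 and 14.65 in controls and 14.27, 14.69 and 15.21 with MMI, with a log2 change of 0.30 (SE 0.36) that was -0.10 without control replicate 2. The values above 0 of the 4 pairs summed to 13188 to 43320 in controls and 33228 to 63391 with MMI. Calb1.L made up most of each sum, from 11588 on control 2 to 62332 on MMI replicate 3, so the sums are close to a reading of 1 gene. Control 2 was the lowest control in these sums and in nkx2-2.S, as it was in 15 of the 29 tested pairs. The part of nervous tissue in the nkx2-2.S result was not tested. The globin gene hbd.S summed to 1975 to 4237 in controls and 2281 to 3277 with MMI, and the liver marker fgg.L reached 61.9 at most. In whole hindlimbs, fewer cells of a type and less RNA per cell cannot be told apart.

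A set of dim pairs outside the tested ones had steady duplicate spots. In 36 pairs both spots were above 0 on all 12 hindlimb arrays at 96 h, and 18 of these were outside the tested pairs. This set was chosen after the values had been seen, and none of it was above background on more than 2 of the 6 arrays. Their median intensities ran from 656 to 3065, beside noise SDs of 835 to 1928 on the 6 arrays, while their duplicate spots differed by a median of 3.81 to 20.0%. Their changes were fitted on log2 deposited intensities over the 12 arrays, and the median half-width of the 95% interval was 0.37, against 0.97 for the tested pairs. Because of how the set was chosen and how dim it is, the pairs are described here without a test.

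The largest change among the 18 was in the unnamed pair 250. It read 517, 585 and 928 in controls and 1780, 1727 and 1019 with MMI, every MMI animal above every control. It was not above background on any of the 6 arrays, so no fold is given. With PTU it read 1035 to 1278 and with PER 981 to 1125, so that the controls were the lowest group.

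What set the constant of each array is not known, and whether rpl8.S or other steady spots were used for it was not settled. The part of any such scaling in the values below was not tested. Ribosomal protein gene rpl8.S was printed as 5 such pairs, and their mean read 1904, 2110 and 2183 in controls and 1909, 1984 and 1832 with MMI. The 5 separate changes ran from -0.34 to 0.10, with SEs of 0.14 to 0.18, and from -0.35 to 0.14 without control replicate 2. The ribosomal protein gene rpl35a.S read 2151, 2130 and 2158 in controls and 2465, 2405 and 2805 with MMI, every MMI animal higher (log2 change 0.25, SE 0.18, and 0.24 without control replicate 2). The nucleoside diphosphate kinase gene nme2.L read 2676, 2847 and 2690 in controls and 1952, 2359 and 2172 with MMI, every MMI animal lower (log2 change -0.34, SE 0.16, and -0.32 without control replicate 2). Scaled to the mean of the rpl8.S pairs, the log2 changes were 0.35 for rpl35a.S and -0.24 for nme2.L. On the deposited intensities, groups did not overlap in 2 of the 18 with MMI higher (11.1%) and in 5 with MMI lower (27.8%), over a median change of -0.09.

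The other 2 gapdh.S pairs were among the steady ones and went against the bright one in level. At 96 h pairs 394 and 402 read 594 to 879 and 478 to 821 over the 12 arrays, while pair 397 read 17327 to 65291. At 24 h, over control and MMI arrays, all 3 were bright, at 17795 to 41123, 15312 to 39687 and 19493 to 33583. The 3 pairs carry the same symbol, and why they part at 96 h was not tested. In both dim pairs every MMI animal was below every control on deposited intensity. Their log2 changes were -0.13 (SE 0.17) and -0.26 (SE 0.18), or -0.10 and -0.35 without control replicate 2, beside 0.07 in the bright pair. Scaled to the mean of the rpl8.S pairs, the changes of the dim pairs were -0.03 and -0.16.

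**Figure D4:**
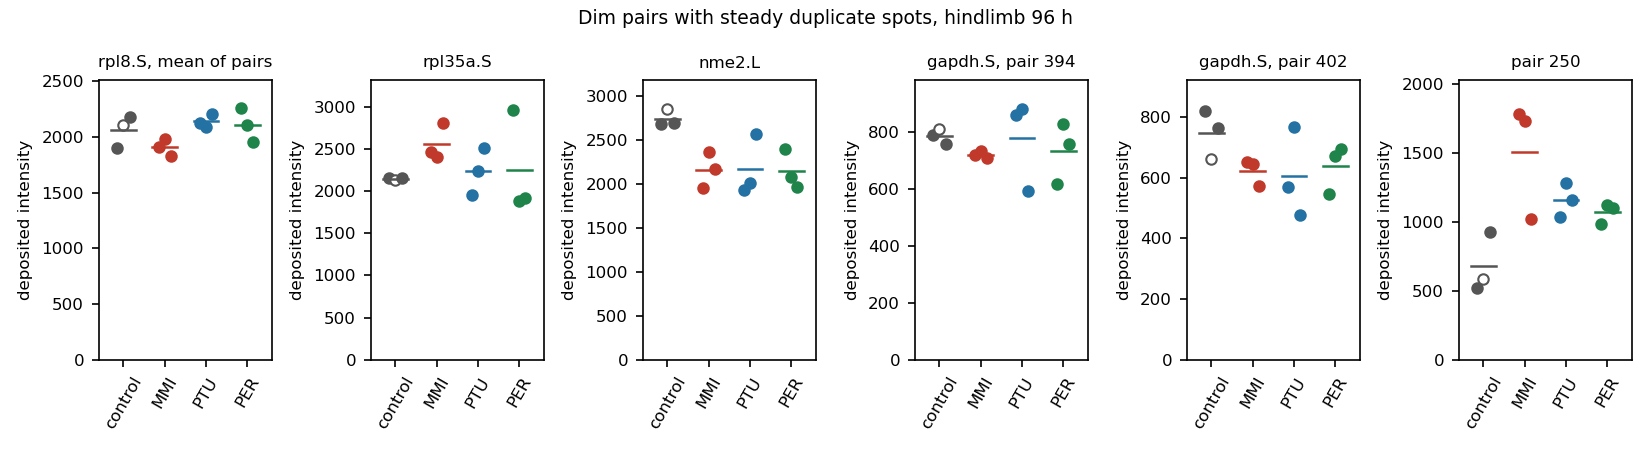
The deposited intensity (vertical axes, from 0) of rpl8.S, rpl35a.S, nme2.L, both dim gapdh.S pairs and pair 250 is plotted for the 12 arrays of hindlimb at 96 h. Points are arrays, horizontal lines are group means and the open circle is control replicate 2. In pair 250 all 9 arrays with an inhibitor are above the 3 controls, between 981 and 1780 against 517 to 928.

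Whether the difference from controls changed with exposure time was tested against the 3 MMI and 3 control hindlimbs of 24 h, each time having controls of its own. Of 48 pairs tested 0 passed (0%; limma, smallest adjusted p = 0.331), with 4 at an unadjusted p under 0.05, all with a higher effect at 96 h. For nkx2-2.S the log2 effect was -0.27 (SE 0.41) at 24 h and 1.37 at 96 h, a difference of 1.65 with SE 0.59 (limma, adjusted p = 0.331). Its level was 13.73, 13.70 and 13.54 in controls of 24 h and 13.79, 12.97 and 13.39 with MMI at 24 h. The MMI animals of 96 h were at those levels, and controls 1 and 2 of 96 h were below all of them. For pair 260 the difference of effects was 1.53 with SE 0.61 (adjusted p = 0.331). Without control replicate 2 these differences were 0.90 and 0.64. For calb1.L the difference of effects was 1.01 with SE 0.50 and for ldhb.S -0.52 with SE 0.27, and none of these passed. With only the groups of both times fitted, the adjusted p of nkx2-2.S was 0.529.

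The other 2 inhibitors were given to hindlimbs of the same time at other concentrations, propylthiouracil (PTU, a thionamide as well) at 20 mg/L and perchlorate (PER, which blocks iodide uptake) at 4 mg/L. The concentrations differ, so the direct comparisons below cover compound and dose together. Between MMI and PTU 0 of 47 pairs passed (0%; limma, smallest adjusted p = 0.063), and 3 had an unadjusted p under 0.05. Of the 47 pairs, 14 were above background on 0 MMI arrays and entered through the 3 PTU arrays, so the filter favoured pairs lower with MMI. For nkx2-2.S the difference was 0.13 with a 95% interval of -0.72 to 0.97, and for pair 260 -0.13. The 3 with an unadjusted p under 0.05 were the unnamed pairs 391 and 124 and the desmin gene des.1.S. Pair 391 and des.1.S were above background on 0 MMI arrays and on all 3 PTU arrays, and the same held for pou2f1.S, a homeobox gene, so no size is given for them. Pair 124 was above background on 1 MMI array and 3 PTU arrays, so the PTU arrays alone would have admitted it as well. It read 11.497, 12.37 and 11.74 with MMI and 14.06, 13.73 and 13.67 with PTU. Its adjusted p of 0.0677 (limma) is therefore no support. The des.1.S difference passed in 4 of 14 alternatives, among them both other centrings. It entered the test through the PTU arrays alone, so these passes are no support. The tubulin gene tuba1 differed by -0.76 (SE 0.58, adjusted p = 0.909 by limma), and by -1.24 to -0.14 with 1 array left out, the latter without MMI replicate 3.

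Between MMI and PER 0 of 35 pairs passed (0%; limma, smallest adjusted p = 0.234), with 5 at an unadjusted p under 0.05, 3 of them higher with MMI. Nkx2-2.S read 12.18, 12.55 and 13.004 with PER, below all 3 MMI animals, a difference of 0.96 with SE 0.41 and a 95% interval of 0.12 to 1.81 (limma, adjusted p = 0.234). Pair 260 read 14.08, 14.31 and 14.17 with PER and differed by -0.10. The cyclin gene ccnd1.L was 0.65 higher with MMI (SE 0.29, adjusted p = 0.234) and tpm4.S 1.92 higher (SE 1.11, adjusted p = 0.473), and neither passed. With arrays centred on their medians the nkx2-2.S difference was 0.5 and the ccnd1.L difference 0.10. That of tpm4.S was 0.59 without PER replicate 1.

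**Figure D5:**
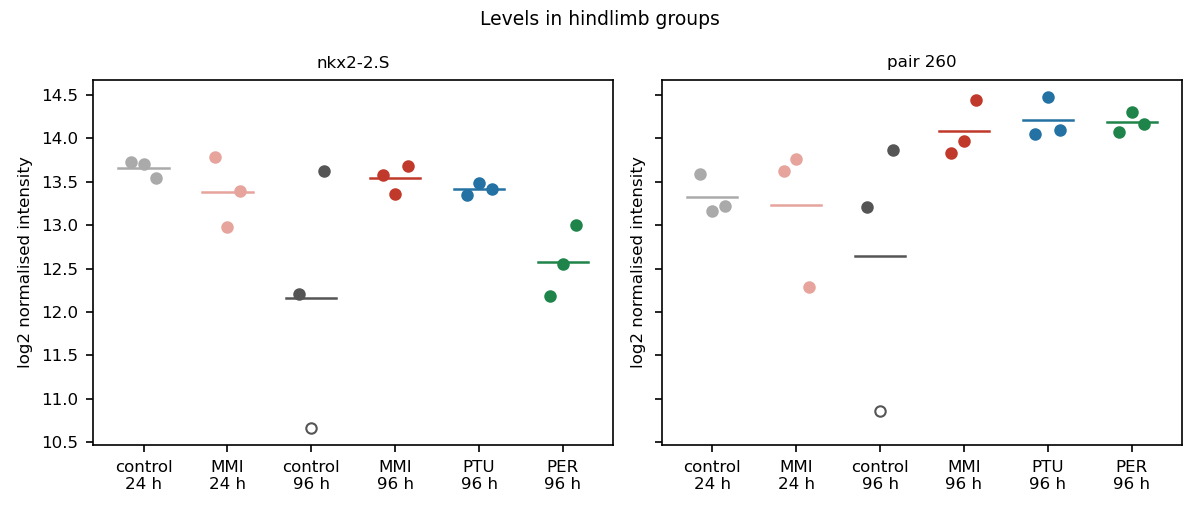
The log2 normalised intensity (vertical axis) of nkx2-2.S and pair 260 is plotted for 6 hindlimb groups of 3 arrays each. Points are arrays, horizontal lines are group means and the open circle is control replicate 2 of 96 h. In nkx2-2.S the MMI and PTU animals of 96 h are at the level of both groups of 24 h, while the PER animals and 2 of the 3 controls of 96 h are below the MMI and PTU animals.

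The effects of the 3 inhibitors at 96 h were taken against the same 3 controls, so their values share whatever those arrays hold. Side by side, the log2 change of nkx2-2.S was 1.37 with MMI, 1.25 with PTU and 0.41 with PER (limma, adjusted p = 0.0351, 0.0491 and 0.638). For pair 260 it was 1.44, 1.56 and 1.54 (adjusted p = 0.0351, 0.0251 and 0.046). For hmgn3.L it was 2.15, 2.13 and 2.15, and for pair 70 it was 0.74, 0.64 and 0.54, none of which passed. In tail at 48 h, where MMI had controls of its own, nkx2-2.S differed by -0.05 (SE 0.35) and pair 260 by -0.05 (SE 0.22). There pair 70 differed by -0.39 (SE 0.37), and hmgn3.L was not tested. With MMI in hindlimb at 24 h, pair 70 differed by -0.16 (SE 0.28) and hmgn3.L by 1.55 (SE 0.80). None of these differences passed.

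The study's own criterion, as the labels describe it, asked for a change of at least 2-fold, a difference between the highest and the lowest replicate, divided by 2, of at most 1.1, and at least 4 spot values. Applied to the log2 values of the 29 pairs, 7 changed 2-fold or more and 1 met the criterion (3.45%), the unnamed pair 36, which was lower with MMI. It read 11.69, 10.87 and 12.93 in controls and 9.73, 10.996 and 11.62 with MMI, and the groups overlapped (log2 change -1.05, SE 0.54, adjusted p = 0.224 by limma). Its change was -1.55 without control replicate 2 (adjusted p = 0.35). Nkx2-2.S and pair 260 failed it through controls whose values spread by 1.485 and 1.51 on that measure. Without control replicate 2, 6 pairs changed 2-fold or more and 1 met the criterion, pair 124 in place of pair 36. Pair 36 then had a larger change and a control range of 0.63 on that measure, so it failed on the number of spot values. The labels do not give the scale of the range, so the number of pairs that met the criterion depends on the log2 scale chosen.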

How the data were processed

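Members, gene lists and comparisons were chosen with earlier results of these data known. Per the labels' protocols, total RNA of each hindlimb was amplified and labelled with P32. The authors deposited 1 table of background-subtracted spot intensities; how they were scanned, corrected and scaled, and why some spots are blank, is not stated there. Every value on each of the 12 hindlimb arrays of 96 h was a whole multiple (within 0.02) of 1 constant. The constant differed between arrays, from 1 on PTU replicate 2 to 3.44 on control replicate 2. The step that gave rise to it is not known. The platform's symbols were updated for 233 of 237 named pairs through the Xenopus_laevis_v10.1 annotation, used for names alone.

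Intensities were passed through normexp (offset 50), put on the log2 scale, quantile normalized over the 38 hindlimb arrays and averaged over duplicate spots in limma 3.58.1 (R 4.3.3). Values at or below 0 have no log, and the offset shrinks changes of dim pairs. The noise SD was 1.4826 times the median size of the negative values of an array. All 38 arrays were fitted by lmFit with 1 coefficient for each of 12 groups and by eBayes. The prior spread came from pairs above background on at least 3 of the arrays fitted, a choice made after results with a prior from the tested pairs alone had been seen; both gave 2 calls. Benjamini-Hochberg adjustment ran over the pairs of a comparison, with a threshold of 0.05. The number of arrays limits the precision.

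Named were every pair that passed and every tested pair with a symbol for MMI against control, and in the other comparisons the 3 named pairs with the smallest p and the pairs called for MMI. Other pairs named in the text were chosen after their values were seen. The scripts were tested on simulated data. Alternatives covered the arrays fitted, scaling, background, filter, blank spots, array weights, replicate block and each array left out. Same-numbered MMI and control arrays deviated from their group means with r = -0.08, 0.08 and 0.08 over 62 pairs, so no pairing by number was seen. That does not exclude a step shared by replicate number.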

Additional observations from a re-analysis of the deposited data

How the results depend on the processing

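For MMI against control, the 2 calls became 0 with only the groups compared, only the inhibitor arrays, no scaling between arrays, no filter, array weights, or the replicate number as a block. They became 4 with median centring, bright centring or a floor. The study's own criterion, which holds no test, was met by neither of the 2 called pairs. Pair 36 met it, or pair 124 without control replicate 2, both lower with MMI. Leaving out 1 array gave 0 to 3 calls: 0 without control 2 or any MMI array, 1 without control 1, 3 without control 3. The 3 without control 3 included hmgn3.L, then above background on MMI arrays alone. Nkx2-2.S and pair 260 kept a positive sign throughout, at 0.63 to 2.11 and 0.52 to 2.11, and passed in 8 of 19 and 9 of 19 tested alternatives. Median centring, bright centring and no scaling moved the median change of the tested pairs from 0.03 to 0.28, 0.20 and 0.42. With either centring, in fits that included control replicate 2, 3 calls were higher and 1, ldhb.S, lower. The replicate block gave 0 calls in the other comparisons between groups as well. No pairing by number was seen, but the correlations above cannot exclude it. The cause of this loss was not tested.

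For the effect at 96 h minus that at 24 h, bright centring gave 1 call, and leaving out arrays 0 to 2, with 2 without control 3 of 96 h. For MMI against PTU, 0 calls became 1 with only the groups compared or the inhibitor arrays, 3 with median or bright centring or a floor, 2 with array weights, and 0 to 2 with an array left out (2 without MMI 1). For MMI against PER, leaving out arrays gave 0 to 1, with 1 without MMI 2. The difference in pairs above background stayed negative, from -8.67 to -0.17 with an array left out.

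These values turned in sign, none of them past the threshold. With median centring, bright centring and no scaling, ccnd1.L read 0.19, 0.11 and 0.33, and gapdh.S (pair 397) -0.16, -0.24 and -0.02. With median centring and no scaling ccnd2.L read 0.05 and 0.19. With no scaling ywhab.L read 0.04, mamdc2.L 0.14, and pair 260 0.58 against PTU and 0.31 against PER. With a floor cdk1.S read -0.41. With an array left out, calb1.L ran from -0.10 to 0.60, ccnd1.L from -0.35 to 0.05, cdk1.S from -0.27 to 0.74, gapdh.S from -0.04 to 0.26, pair 260 against PTU from -0.31 to 0.01 and against PER from -0.28 to 0.02. Among steady pairs, rpl8.S ran from -0.18 to 0.14 (pair 15), -0.03 to 0.24 (pair 34) and -0.28 to 0.00 (pair 384), and hbd.S from -0.43 to 0.12. The cause of these moves was not tested. Signal over background limits the comparison of MMI with control to 29 of 406 pairs.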
